A study of Mus musculus with 2 samples.

Results

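Of the 2018 autosomal sites in a list of Lef1 binding peaks from mouse CD4+ T cells, 784 lay deep inside a gene. Such a peak had its centre inside a RefSeq protein-coding gene, and none of its bases was within 1 kb of the start or end of any protein-coding gene. They made up 38.9% of the autosomal peaks (95% exact binomial interval 36.7 to 41.0%), and the whole list held 2052 peaks. Their hosts were 693 genes, which is 3.78% of the 18310 autosomal protein-coding genes long enough to have such a deep body. The host of a peak was the shortest gene that held its centre, and 4 peaks lay in more than 1 gene.

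Lef1 belongs to the TCF/LEF transcription factors, which recognise a short AT-rich core through an HMG box. Family members act as the nuclear end of the Wnt pathway when bound by beta-catenin, and recruit Groucho-type corepressors in its absence. In T cells Lef1 and its relative Tcf7 are known for their roles in thymocyte development and in keeping CD4+ helper fates apart. Enhancers and alternative promoters often lie inside gene bodies, in the body of the gene they serve or of a neighbour.

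Chromatin was precipitated with the anti-Lef1 antibody C18A7 from conventional CD4+ T cells of the spleen, sorted as TCRb+, CD4+ and CD25- (the series description adds GFP-), from wild-type C57BL/6 mice aged 8 to 10 weeks. The control was the same precipitation from TCRb+ CD4+ T cells of CD4-Cre+ Lef1 fl/fl mice, also given as C57BL/6, in which Cre under a Cd4 promoter removes floxed Lef1 sequence in the T cell lineage. Because CD4-Cre acts from the CD4-expressing stages of the thymus on, the control cells completed their development without intact Lef1. They were sorted as all CD4 T cells, without the CD25- gate of the wild type, although for both libraries the tissue label reads naive CD4 T cells. Each kind had 1 library and no replicate, the control entered only the peak calling, and a peak list alone cannot check the purity of the sorted cells. Read depth is unknown, so a deposited score (−log10 of the p from peak calling) describes an excess of reads in these libraries and not how well it repeats. Intervals given here are 95% intervals that cover counting error only. A difference between deep and other peaks was tested on peaks, which are not independent where they neighbour each other.

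Some deep peaks sat at a further annotated start of a gene, often only a few kilobases past the first. An internal start here is a transcript start in the RefSeq start table (GRCm38.p6, the assembly of the peak coordinates) that lies inside a protein-coding gene and more than 1 kb from every protein-coding gene end. In that table, each start comes with a window of 250 bases before and 50 bases after it, and 35 deep peaks in 33 genes overlapped such a window. The stretches printed here are the bases upstream of an internal start that a deep peak covered. They were chosen after their values were seen: 4 hold a TCF/LEF core, and the last lies in the widest deep peak. Letters run 5′ to 3′ along the named gene. Capitals mark the TCF/LEF core on either strand, as CTTTGAA or CTTTGAT or their reverse complements, or as its 6-letter form CTTTGA.
Kmt2d, chr15:98871250-98871367, minus strand: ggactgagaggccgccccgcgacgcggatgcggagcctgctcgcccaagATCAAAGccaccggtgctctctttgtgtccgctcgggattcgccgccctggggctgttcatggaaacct
Zfp445, chr9:122866007-122866121, minus strand: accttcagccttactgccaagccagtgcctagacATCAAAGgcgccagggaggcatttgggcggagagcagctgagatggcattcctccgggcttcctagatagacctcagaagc
Btbd6, chr12:112976322-112976481, plus strand: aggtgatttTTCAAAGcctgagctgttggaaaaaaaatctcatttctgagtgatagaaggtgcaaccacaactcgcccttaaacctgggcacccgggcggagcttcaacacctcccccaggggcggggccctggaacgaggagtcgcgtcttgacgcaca
Gm11695 in Slc16a5, chr11:115463699-115463948, minus strand: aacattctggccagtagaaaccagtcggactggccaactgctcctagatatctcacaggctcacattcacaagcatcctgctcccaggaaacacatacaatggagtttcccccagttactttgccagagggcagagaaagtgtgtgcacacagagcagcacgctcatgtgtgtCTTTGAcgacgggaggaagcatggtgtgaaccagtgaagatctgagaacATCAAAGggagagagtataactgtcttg
Axin2, chr11:108920206-108920348, plus strand: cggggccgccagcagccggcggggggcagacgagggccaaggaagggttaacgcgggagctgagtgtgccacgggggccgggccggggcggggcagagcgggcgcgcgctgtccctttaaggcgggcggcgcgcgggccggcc

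Kmt2d encodes a histone H3 lysine methyltransferase of enhancers, Zfp445 a zinc finger protein, Btbd6 a BTB domain protein and Axin2 a scaffold of the complex that degrades beta-catenin. Gm11695 is a long noncoding RNA gene whose start lies inside Slc16a5, a member of the monocarboxylate transporter family. The Kmt2d peak scored 5.48, was 118 bp wide and lay whole within the window, 2.77 kb into the gene. Its only core is the one in capitals. The peak in Slc16a5 scored 9.65, was 412 bp wide and covered the printed stretch, with 1 core of 7 letters and 1 of 6 letters. The peaks at the Zfp445 and Btbd6 starts scored 4.99 and 4.11. The Axin2 peak, at 1141 bp the widest of the 784, scored 5.86. The 143 bases of it printed here hold no core, are 80.4% G or C and have 21 CpG steps.

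Over whole windows, 9 of the 34 internal start windows that overlapped a deep peak (26.5%, interval 12.9 to 44.4%) held the 7-letter core, with each run of overlapping windows counted once. In 4 of the 9 the core was in the upstream bases under the peak, and these are the first 4 sequences above. Among the other 5841 internal start windows the share was 8.25% (7.56 to 8.99%), and among all 29061 windows in the table it was 8.86%. The windows with a deep peak also differed in base composition, with a median G and C content of 66.3% against 51.7% and a median of 28 CpG steps against 5. Among windows with at least 10 CpG steps, the core was in 7 of 32 with a deep peak (21.9%, 9.28 to 39.97%) and in 76 of 1876 without (4.05%, 3.21 to 5.05%). The interval of the windows with a deep peak thus lay above that of the others in both comparisons. The 6-letter core CTTTGA was in 26.5% of the windows with a deep peak and in 16.2% of the others, a difference within the interval. With at least 10 CpG steps it was in 21.9% (9.28 to 39.97%) against 8.8% (7.55 to 10.2%), and these intervals overlapped. The windows with at least 10 CpG steps still differed in composition. Those with a deep peak had medians of 28 CpG steps and 67.2% G and C, against 20 and 62.7%.

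Other letters searched on both strands gave a mixed picture. The GC box GGGCGG was in 82.4% of the windows with a deep peak and 27.1% of the other internal ones, and with at least 10 CpG steps in 84.4% and 62.4%. The ETS-type letters CCGGAAG were in 2 of the 34 (5.88%) against 5.27%, and the RUNX-type letters TGTGGTT in 1 of 34 (2.94%) against 6.01%. With at least 10 CpG steps the ETS-type letters were in 2 of 32 (6.25%) against 11.9%. The RUNX-type letters were then in 1 of 32 (3.1%) against 2.8%. The 213 start windows with a listed autosomal peak that was not deep held the TCF/LEF core in 21.1% (15.9 to 27.2%), so the share at internal starts was not particular to them. In those windows the ETS-type letters were in 18.8%. A match is only a run of letters, and not evidence of a bound site.

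Internal starts took more deep peaks than their length. There were 6458 such starts in 5118 genes on the 18 autosomes of the start table, and 59 of the 756 deep peaks on those chromosomes (7.80%, 5.99 to 9.95%) lay within 1 kb of one. The deep body within 1 kb of an internal start came to 10.7 Mb, or 1.18% of it. Peak density was 5.50 per Mb there (4.19 to 7.09) and 0.775 per Mb (0.718 to 0.834) in the other 900 Mb, a ratio of 7.10. In 51 of the 59 the start belonged to the host gene itself, and in 8 to another gene.

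The 59 peaks were wider than the other 697, with a median of 116 bp against 78 bp. Of them, 27 (45.8%, 32.7 to 59.3%) scored above the median of the list, which was 4.40, against 200 of 697 (28.7%, 25.4 to 32.2%). A score of at least 8 was found in 1 of the 59, the one in Slc16a5, and in 30 of the other 697. Among all 784 deep peaks the share was 4.08%. Another of the 59 scored 8.00 after rounding, just below the limit, so these counts are too small to compare the 2 sets. Among genes of T cell signalling and of chromatin, peaks at an internal start of the host included those in Grb2 (5.41, 335 bp from the start), an adaptor that links receptors to Ras activation, and Arid1a (6.28, 425 bp), a subunit of the BAF chromatin remodelling complex. Lef1 itself had a peak of 55 bp and score 4.80 at 709 bp from an internal start. Part of the Lef1 gene is deleted in the control cells, so a peak there compares unlike DNA, and its part in the result was not tested.

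**Figure D1:**
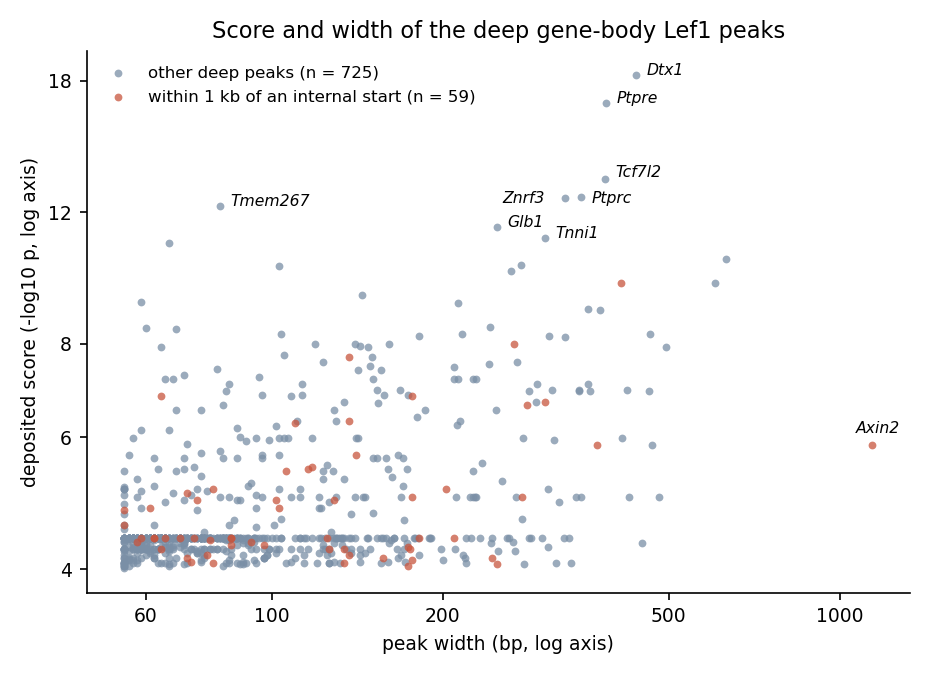
Width in bp (x, log axis) and deposited score, −log10 p (y, log axis), of the 784 deep peaks, each point 1 peak; red points lie within 1 kb of an internal start. Most points sit at scores just above 4, while Dtx1 at 18.29 and Ptpre at 16.79 are the highest and Axin2 at 1141 bp is the widest.

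Deep peaks were mostly short and close to the lowest score in the list. Scores ran from 4.01 to 18.29 with a median of 4.40 and an upper quartile of 4.99, and 307 of the 784 (39.2%) had the single most common score, 4.40. Widths ran from 55 to 1141 bp with a median of 80 bp. The peaks covered 89869 bp in all.

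Against the 1234 other autosomal peaks, no difference in score or width passed the test. A score above the list median was found in 234 deep peaks (29.8%, 26.7 to 33.2%) and in 30.6% of the others, a difference of -0.79 percentage points (95% Newcombe interval -4.85 to 3.36). A score of at least 8 was found in 32 (4.08%) and in 4.46%, a difference of -0.38 points (-2.13 to 1.54). The adjusted p of both was 0.737 in two-sided Fisher's exact tests, adjusted over 3 tests. Widths of 126 bp or more, the upper quartile of the list, were found in 211 deep peaks (26.9%) and in 24.2% of the others, a difference of 2.68 points (-1.19 to 6.64, adjusted p = 0.567 in the same exact test). The other peaks were themselves mixed: scores above the median made up 37.0% of the 432 peaks within 1 kb of a gene end, 32.5% of the 437 at 1 to 50 kb outside genes and 20.8% of the 365 further out.

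The number of peaks inside genes changed with the limit. Of them, 38 had their nearest base 1 to 1.5 kb from a gene end, 52 had it 0.5 to 1 kb away and 193 nearer. The first 2 sets had median scores of 4.53 and 4.40 and median widths of 86.5 and 87.5 bp. The nearest peak inside the limit, in Eif4a1, was 1022 bp from a gene end and scored 6.01. The nearest outside it, in Adgre5, was 999 bp away and scored 4.65.

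The 32 deep peaks that scored at least 8 had a median width of 256.5 bp, and 20 of them were 200 bp or wider, while only 96 of all 784 were. The highest, at 18.29, was a 438 bp peak in Dtx1, a Deltex ubiquitin ligase tied to Notch signalling and T cell anergy, at chr5:120685747-120686184. It lay 25.9 kb from the start of a gene of 31.7 kb. The second, at 16.79, was 388 bp wide in Ptpre, a protein tyrosine phosphatase, at chr7:135542266-135542653 and 4.64 kb into a gene of 148 kb. They thus lay at opposite ends of their hosts, 81.8% and 3.12% of the way along.

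Next came members of the Wnt pathway and of T cell receptor control. Tcf7l2, another TCF/LEF factor, held a peak of 13.29 at chr19:55792536-55792921, 50.9 kb into a gene of 192 kb. Znrf3, a membrane ubiquitin ligase that removes Wnt receptors, held 1 of 12.52 at chr11:5411624-5411951 in a gene of 168 kb. Ptprc, which encodes the phosphatase CD45, held 1 of 12.57, 13.0 kb into a gene of 113 kb. All 3 peaks were between 328 and 386 bp wide. Other hosts of high peaks have no such role: Glb1, which encodes lysosomal beta-galactosidase, scored 11.45 at 58.1% of its length, and Tnni1, a troponin of slow muscle fibres, scored 11.09 at 88.9%. In Tpm4, a tropomyosin, the peak of 10.38 was 631 bp wide and 1.58 kb from the gene start.

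Of the 32, 7 were narrower than 110 bp, a width more common among low scores (535 of 784 deep peaks). The narrow ones were in Tmem267 (81 bp, 12.22), Smo (66 bp, 10.91), Ptp4a3 (103 bp, 10.16), Rsph3a (59 bp, 9.09), B3galnt2 (60 bp, 8.41), Filip1l (68 bp, 8.37) and Hlcs (104 bp, 8.26). Tmem267 also held 2 further peaks, of 7.28 and 4.48, within 7.71 kb, and Smo, the signal transducer of the Hedgehog pathway, held a second of 59 bp and score 5.09. Whether these narrow peaks are binding sites was not tested.

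Most host genes held a single deep peak. Of the 693 hosts, 608 held 1 deep peak, 79 held 2 and 6 held 3. Of the 85 genes with 2 or more, 29 had all of them within 1 kb and 42 within 10 kb, while 23 had them spread over more than 50 kb. The 6 genes with 3 peaks were Tmem267, Dnaaf5, Rere, Rnf43, Fyb and Sgms1.

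These 6 covered both patterns. In Dnaaf5, a dynein assembly factor, the 3 peaks fell within 0.54 kb and the highest scored 9.30. In Rere, a transcriptional corepressor, a peak of 7.92 and 1 of 4.17 lay side by side at 302 kb, and 1 of 4.40 lay at 185 kb. In Fyb, an adaptor of T cell receptor signalling, the 3 scored 4.40, 4.28 and 4.14 and were spread over 53.5 kb. Those of Sgms1, a sphingomyelin synthase, scored at most 4.40 over 170 kb. The spread peaks in Fyb and Sgms1 stayed at or below the median of the list, above which 29.8% of all 784 deep peaks scored. Tcf7l2, with 2 peaks 123 kb apart, differed in that its second, 174 kb from the start, scored 5.63.

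**Figure D2:**
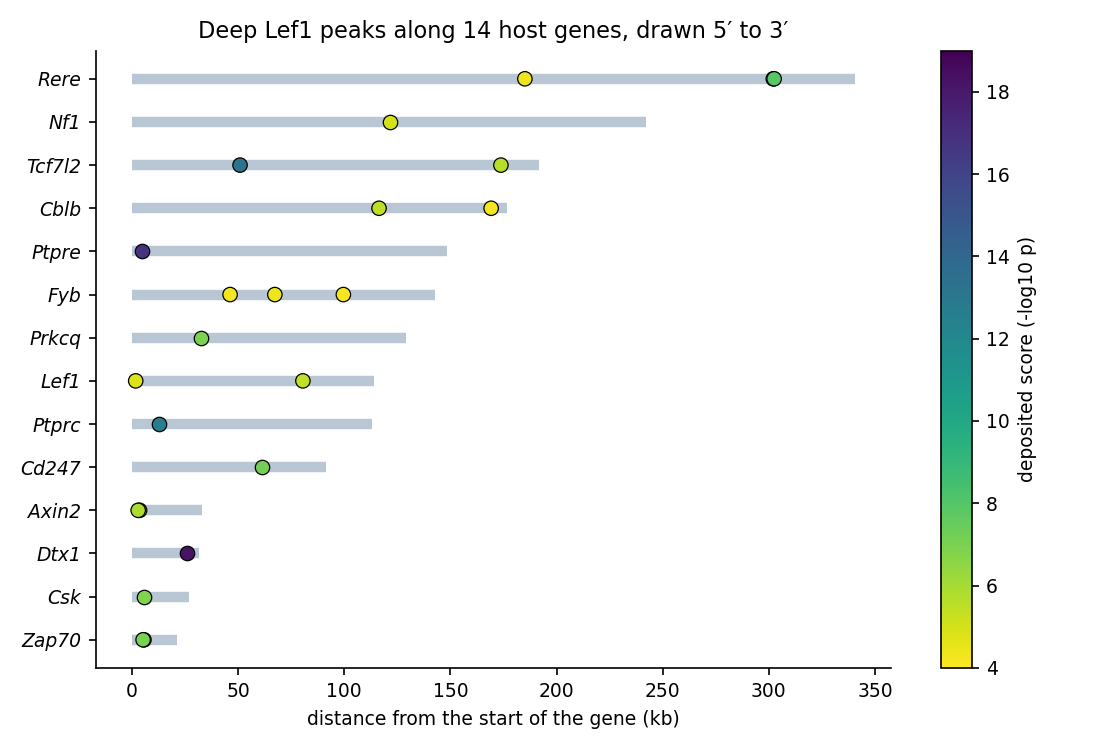
Positions of the deep peaks along 14 named host genes drawn from their start (x, kb), with points coloured by deposited score, −log10 p. Peaks are near the start in Ptpre and Axin2, near the end in Dtx1, and spread over more than 50 kb in Rere, Tcf7l2, Cblb, Fyb and Lef1.

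Hosts were long genes, but long genes were not rich in peaks. The median host was 81.0 kb long (quartiles 33.6 and 178 kb), against 21.5 kb for all genes with a deep body. Long genes hold most of the deep bases, however, and the gene that held the median deep base was 148 kb long. The share of genes that were hosts rose with length, from 31 of 4998 genes of 2 to 10 kb (0.62%) to 155 of 2412 genes of 50 to 100 kb (6.43%) and 40 of 213 genes of 500 kb or more (18.8%, 13.8 to 24.7%).

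Per base the order was the opposite. Over the 942 Mb of deep body the density was 0.832 peaks per Mb (0.775 to 0.892). It was 1.92 per Mb (1.33 to 2.69) in genes of 2 to 10 kb, 1.25 (1.0 to 1.53) in those of 10 to 25 kb, 1.07 (0.919 to 1.24) in those of 50 to 100 kb, 0.591 (0.493 to 0.703) in those of 200 to 500 kb and 0.259 (0.190 to 0.346) in those of 500 kb or more. The longest class thus held 18.8% of the deep bases and 5.87% of the deep peaks. Genes of 10 to 50 kb had a density 2.79 times that of genes of 200 kb or more (2.28 to 3.41). The lowest density by chromosome was 0.553 per Mb on chromosome 6 (0.381 to 0.777) and the highest 1.31 on chromosome 11 (1.02 to 1.65).

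**Figure D3:**
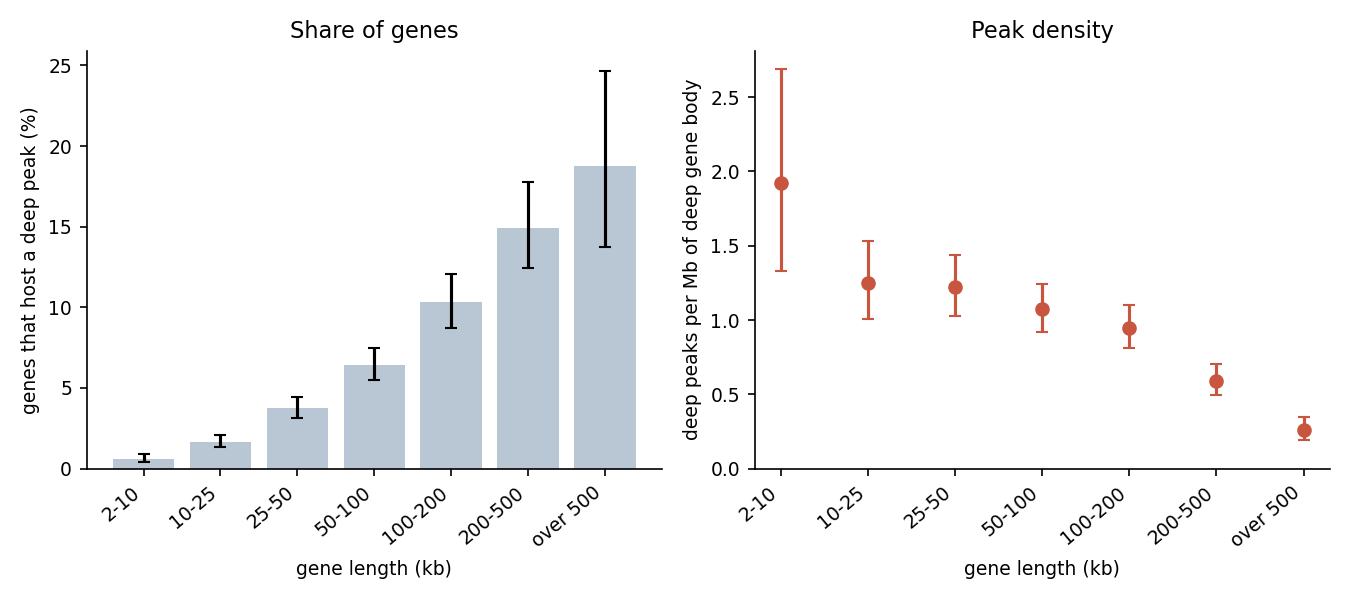
Share of genes that host a deep peak (left, bars, %) and deep peaks per Mb of deep gene body (right, points), by gene length class in kb (x); bars and points carry 95% exact intervals. The share rises from 0.62% to 18.8% while the density falls from 1.92 to 0.259 per Mb.

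The ends of the range show the contrast. The shortest hosts were Ptma (4.16 kb), which encodes prothymosin alpha, S1pr1 (4.62 kb), the sphingosine phosphate receptor that lets T cells leave lymphoid organs, and Fzd7 (4.81 kb), a Wnt receptor. Their peaks scored 5.28, 5.41 and 4.40. The longest were Ptprd (2271 kb), Cntnap2 (2241 kb) and Rbfox1 (1528 kb), which are best known from neurons, and each held 1 peak of 4.40. The peak in Rbfox1 lay 1311 kb from the gene start.

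A deep peak did not go with a peak at the gene's own start or end. Of the 693 hosts, 17 (2.45%, 1.44 to 3.9%) also held a listed peak within 1 kb of an end, against 437 of the 17617 other genes (2.48%, 2.26 to 2.72%). Of the 784 deep peaks, 43 lay inside a long noncoding RNA gene as well.

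Along the gene, deep peaks leaned to the first part. The strand was taken from the RefSeq start table for the hosts of 625 peaks (551 genes). Of these peaks, 357 (57.1%, 53.1 to 61.0%) were nearer to the start of the gene than to its end, and the median peak was 32.7 kb from the start. In 5 equal stretches of the gene from start to end, densities were 0.958, 0.975, 0.914, 0.702 and 0.694 per Mb of deep body. The step was between stretches 3 and 4, whose intervals (0.769 to 1.08 and 0.575 to 0.848) overlapped.

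By distance, the excess was in the first kilobases. At 1 to 5 kb after the start there were 98 peaks, or 1.88 per Mb (1.52 to 2.29). At 5 to 10 kb the density was 0.892 (0.660 to 1.18), at 25 to 50 kb it was 1.09 (0.907 to 1.29) and beyond 100 kb it was 0.490 (0.410 to 0.581). On the other side, at 1 to 5 kb before the end, it was 0.944 (0.699 to 1.25), below the interval of the start side. Beyond 100 kb from the end it was 0.534 (0.451 to 0.629), which overlaps the interval beyond 100 kb from the start. Bases that far from either lie only in genes longer than 100 kb.

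Genes of 10 kb or more gave the same order. They held 73 peaks at 1 to 5 kb after the start and 29 at 1 to 5 kb before the end, on 41.2 and 40.9 Mb, so that 71.6% (61.8 to 80.1%) were on the start side. Without the peaks within 1 kb of an internal start the counts were 48 and 29, or 62.3% (50.6 to 73.1%) on the start side. That alternative was added after the data were seen.

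**Figure D4:**
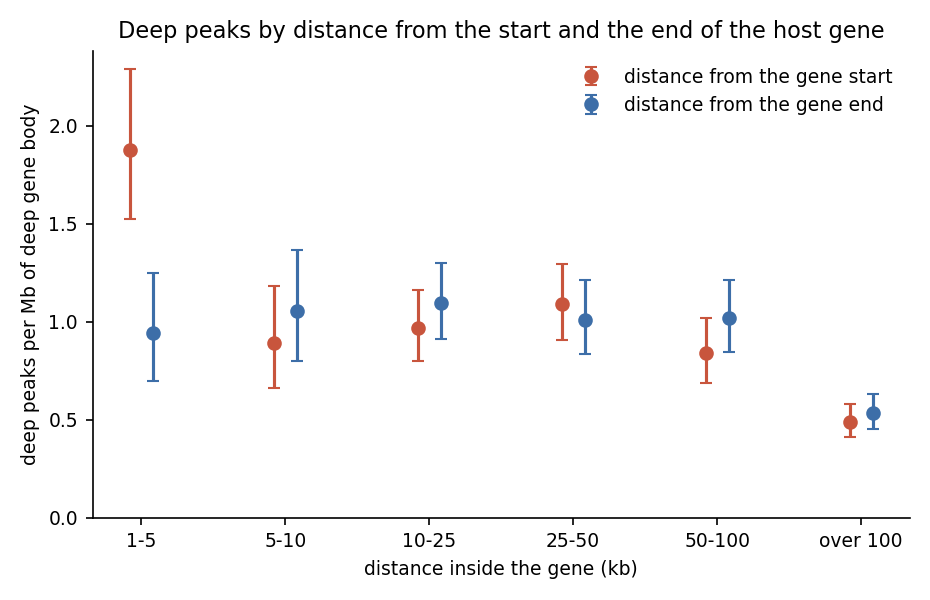
Deep peaks per Mb of deep gene body (y) by distance in kb (x) from the start (red) and from the end (blue) of the host gene, with 95% exact Poisson intervals. The bin 1 to 5 kb after the start stands at 1.88 per Mb, against 0.944 for the same distance before the end.

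The gene lists used from here on were chosen with earlier results of these data known, so their counts are not independent evidence. Of the listed genes that work in T cells or in the Wnt pathway, more were hosts than of all genes. In 6 lists of such genes, pooled, 46 of the 206 with a deep body (22.3%, 16.8 to 28.6%) were hosts, beside 3.78% of all genes. They held 61 deep peaks in 17.9 Mb, which is 3.40 per Mb (2.60 to 4.37) beside 0.832. Their median length was 56.3 kb against 21.5 kb for all genes. Density stayed higher within length classes, at 5.43 per Mb against 1.29 in genes of 2 to 50 kb. It was 4.30 (3.07 to 5.85) against 1.01 in those of 50 to 200 kb, and 1.52 (0.728 to 2.79) against 0.442 in longer ones. A density above that of all genes was not particular to these lists: chromatin regulators, described below, had 2.3 per Mb (1.31 to 3.73).

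Peaks above the median score also lay in a larger share of the genes of the 6 lists than of all genes. Such a peak lay in 28 of the 206 genes (13.6%), beside 213 of 18310 genes (1.16%). That comparison was not split by length class, and the listed genes were longer. Of the 61 deep peaks in these genes, 33 scored above the median, beside 234 of all 784 deep peaks (29.8%).

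In the Wnt pathway, 9 of 36 genes were hosts (25%), where the all-gene share of each length class would give 2.08. They included the nuclear factors Tcf7l2 and Lef1, the receptor Fzd7, the kinase Gsk3b (4.94) and the scaffolds Axin2 and Axin1 (4.17) of the beta-catenin degradation complex. Both ubiquitin ligases that clear Wnt receptors were hosts, Znrf3 with 1 peak of 12.52 and Rnf43 with 3 of at most 4.53. The second peak of Lef1, of 5.41, lay 80.5 kb into the gene, and whether that is in the part deleted in the control is not known here. The 14 peaks in these 36 genes came to 5.51 per Mb (3.01 to 9.25). Of them, 8 scored above the median, beside 29.8% of all 784 deep peaks.

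In T cell receptor signalling, 9 of 31 genes were hosts (29.0%) where the length classes would give 2.17. From the membrane inwards, Cd247, the zeta chain of the receptor complex, held a peak of 7.22 at 61.0 kb. Trat1, which interacts with that complex, held 1 of 5.63. Zap70, the kinase that binds the zeta chain, held neighbouring peaks of 7.07 and 4.99, at 5.27 and 5.68 kb from the start. Prkcq, the protein kinase C of the immune synapse, held 1 of 6.95 at 32.6 kb. The peak in the adaptor Grap2 scored 4.11, near the lowest score of the list.

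Among genes that restrain T cell activation, 8 of 35 were hosts (22.9%), where the length classes would give 2.13. They carried 3 of the 4 highest deep peaks, in Dtx1, Ptpre and Ptprc, but the list was chosen with earlier results of these data known. CD45, the product of Ptprc, also activates Src family kinases. Csk, the kinase that holds Src family kinases inactive, had a peak of 6.84 at 5.74 kb from its start. Cblb, a ubiquitin ligase that limits activation, had 2, of 5.48 at 116 kb and 4.23 at 169 kb. Nf1, which inactivates Ras, had 1 of 4.99 at 50.1% of its 242 kb, and Ubash3b and Ptpn2, both phosphatases, had 4.35 and 4.25.

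Of the transcription factors of T cells, 16 of 51 were hosts (31.4%), where the length classes would give 4.1. The highest were Foxn3 (6.91), a forkhead factor, Tcf4 (6.70 and 4.99), an E protein that is not of the TCF/LEF family, Fli1 (5.95 and 4.94), an ETS factor, and Ikzf1 (5.12), which encodes Ikaros. Prdm1, which encodes Blimp-1, Runx2 and Foxp1 each had a highest peak of 4.99. Satb1 (4.25), Runx1 (4.09) and Bach2 (4.04) were below the median score. Of the 21 peaks in this list, 10 scored above it, beside 29.8% of all 784 deep peaks.

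Cytokine receptors and adhesion genes had 2 hosts each. Of 26 cytokine receptors, 2 were hosts, Tnfrsf1b (5.75) and Tgfbr3 (4.31), and of 27 adhesion and trafficking genes, 2 were hosts, among them S1pr1 (5.41). The length classes would give 1.03 and 1.01, and densities were 2.68 per Mb (0.553 to 7.83) and 1.81 (0.220 to 6.55). At these list sizes the intervals of both shares (0.95 to 25.1% and 0.91 to 24.3%) include 3.78%, and those of both densities include 0.832.

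Intracellular genes that are not specific to T cells were hosts as well. Chromatin regulators had 13 hosts of 61 (21.3%), where the length classes would give 4.72, and 2.3 peaks per Mb (1.31 to 3.73), among them Arid2 (8.26) and Arid1a (6.28) of BAF-type remodelling complexes, Nsd3 (6.82), a histone methyltransferase, and Kmt2d. RNA binding genes had 9 of 38 (23.7%), where the length classes would give 2.87, and 1.77 per Mb (0.809 to 3.36). The interval of that density includes the 0.832 of all genes. Of the 9 deep peaks in RNA binding genes, 2 scored above the median, beside 234 of all 784 deep peaks (29.8%). In MAP kinase cascades 5 of 33 were hosts and in the phosphoinositide pathway 6 of 38, where the length classes would give 2.08 and 3.26, with highest scores of 5.12 in Map3k5 and 4.99 in Plcl2. Their densities were 2.33 per Mb (0.855 to 5.07) and 1.20 (0.483 to 2.48), and the second interval includes 0.832.

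**Figure D5:**
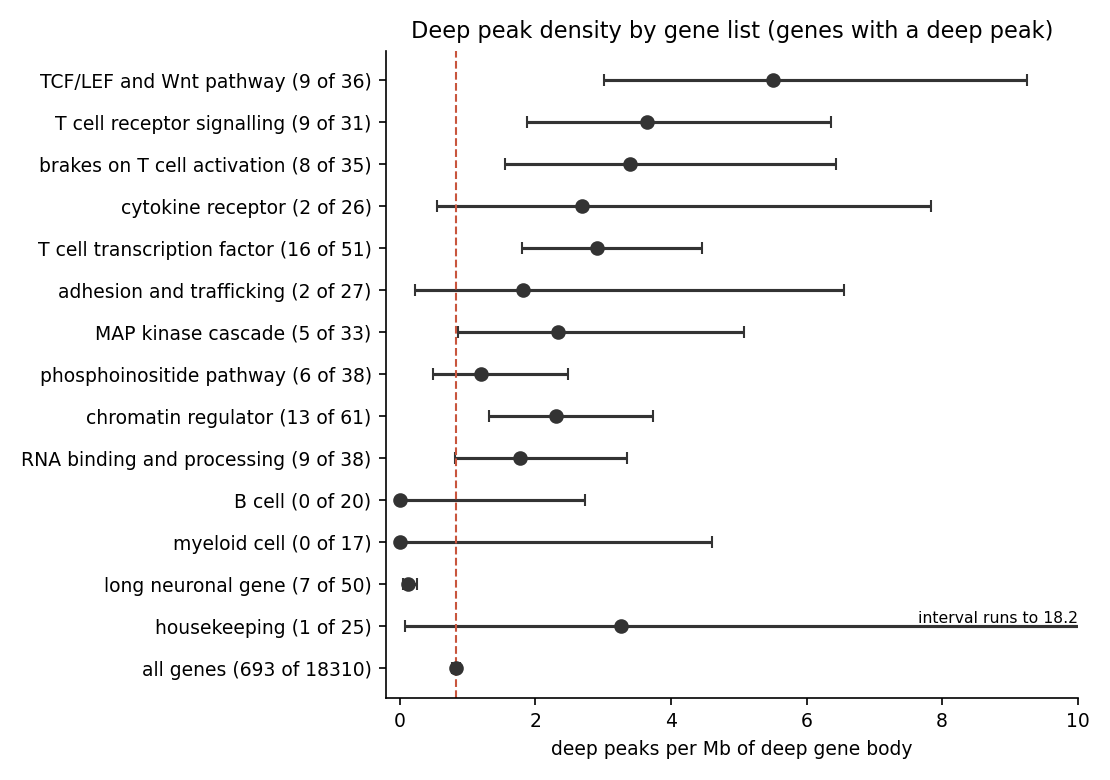
Deep peaks per Mb of deep gene body (x) for 14 gene lists and all genes (y), with 95% exact Poisson intervals and, in brackets, the hosts of the genes with a deep body; the dashed line is the density over all genes, 0.832. The Wnt list stands at 5.51 per Mb and the long neuronal genes at 0.125.

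In 3 lists of other lineages, 7 of the 87 genes with a deep body were hosts (8.05%, 3.30 to 15.9%), all of them long neuronal genes. None of 20 B cell genes and none of 17 myeloid genes was a host, which by length class would give 0.91 and 0.64. At these list sizes shares of up to 16.8% and 19.5% cannot be told from 0. Long neuronal genes, with a median length of 1093 kb, had 7 hosts of 50 where their length classes would give 9.28, and 0.125 peaks per Mb (0.0501 to 0.257). The interval of that density overlaps the one of all genes of 500 kb or more, 0.259 per Mb (0.190 to 0.346). None of these 7 peaks scored above the median, beside 29.8% of all 784 deep peaks. Of 25 housekeeping genes, most of them short, 1 was a host, Psmb2 (4.40), a proteasome subunit.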

How the data were processed

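The deposited values are a peak list with 1 score per peak, which is −log10(p-value) per the file headers. FastQC, Bowtie2 2.3.4.1 and MACS2 2.1.1, with build mm10, are the tools named by the submitters' processing notes. Parameters, depth and any later filter: not given in the sources used here. Starts were raised by 1, assuming the BED convention.

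Genes and start windows came from RefSeq tables of GRCm38.p6. The start table held 18 autosomes (chromosome 18 not used there). Deep body is every gene base at least 1 kb from any protein-coding gene end, each base given to 1 host. Shares have exact Clopper-Pearson and densities exact Poisson intervals (95%), computed in Python 3.11.15 with scipy 1.17.1 and tested on simulated peaks. Fisher's exact tests were adjusted by Benjamini-Hochberg over 3 tests.

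Named genes were hosts of the 20 highest peaks, up to 10 hosts with the most peaks, the 3 longest and 3 shortest hosts and hosts in 15 gene lists. Others were chosen after their values were seen: Eif4a1, Adgre5, Zfp445, Btbd6, B3galnt2, Filip1l and Hlcs. Members and lists were chosen with earlier results of these data known, so list counts are not independent evidence. Some genes and 1 of the lists are not reported here. The 8 alternatives and the planned ones not run are in the closing section.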

Additional observations from a re-analysis of the deposited data

How the results depend on the processing

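With no margin around gene ends the deep peaks were 51.0% of autosomal peaks, and with margins of 2.5 and 5 kb 33.9% and 30.2%. With no margin the difference in scores above the median turned to 1.97 percentage points (adjusted p = 0.511, Fisher's exact test), the density ratio of genes of 10 to 50 kb to those of 200 kb or more was 3.76 and 65.5% of peaks were nearer to the start of the gene than to its end. At 5 kb that share was 52.9%. The zone just inside gene ends is added or removed by construction. With only peaks above the median score, 234 peaks and 213 hosts were left by construction, the density ratio was 4.73, 64.6% were nearer to the start, and hosts were 13.6% of the T cell and Wnt genes and 0% of the genes of other lineages; the cause was not tested. Across the margins, deep peaks numbered 609 to 1029 and hosts 531 to 924. Of 68 values over 7 alternatives (also ends of all annotated genes, merged neighbours and the longest gene as host), 55 did not move: tests kept direction and side of the threshold, shares and ratios stayed in the reported interval, and counts stayed within 1.5 times. Asking for whole peaks inside the gene could change nothing, since the 1 kb margin already does so. No paired analysis was possible because there was 1 library of each kind, and for the same reason no replicate could be left out. The planned motif test over all peaks was not run, since no genome sequence was used here. Unknown depth limits what the absence of a peak means.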
